A study of Drosophila melanogaster and Drosophila simulans and Drosophila yakuba with 30 samples.

Results

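Sox binding deserts are long stretches of the D. melanogaster genome in which neither Dichaete nor SoxN was listed as bound in embryos. They were chosen from measured values, as gaps of at least 25 kb between consecutive regions of the merged D. melanogaster Dichaete-Dam and SoxN-Dam interval lists, where intervals sharing at least 1 bp were joined into a region. Of the 24323 gaps between the 24565 regions, 448 (1.84%) met this rule. Their lack of D. melanogaster intervals is therefore their definition, and only the lists of the 3 other species, which the rule did not use, were tested.

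Dichaete and SoxNeuro (SoxN) are group B Sox proteins, transcription factors that bind DNA through an HMG domain and act in the early segmenting embryo and the developing central nervous system, where their expression overlaps. DamID records where such a protein sits by joining it to a bacterial adenine methylase, Dam, which then marks GATC sites close by. Fragments between methylated sites are then amplified and compared with those from flies that express Dam alone. Untethered Dam methylates mainly accessible DNA, so an interval marks a fragment with more methylation by the fusion than by free Dam, and compact chromatin yields few reads from either construct.

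The series holds 30 DamID-seq libraries from whole embryos of 0 to 16 h, in 10 groups of 3 biological replicates, a group being 1 construct in 1 species. Dichaete-Dam and Dam-only lines were made in D. melanogaster (strain w[1118]), in D. simulans (w[501]), in D. yakuba (Cam-115) and in the reference strain of D. pseudoobscura, and SoxN-Dam lines in D. melanogaster and D. simulans. All transgenes, the Dam-only control included, were piggyBac insertions with UAS sites and an Hsp70 promoter, and were carried in a vector marked with EGFP. Every interval list was made from the 3 fusion and 3 Dam-only libraries of a condition together, so that no spread between replicates, no read depth and no strength of binding can be given for a desert. Coordinates throughout are those of the UCSC dm3 assembly, and the sequence and genes of the deserts were not analysed here.

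The deserts added up to 18.3 Mb, which is 15.2% of the 120.3 Mb spanned by chromosomes 2L, 2R, 3L, 3R, 4 and X and 19.3% of the 94.7 Mb in all gaps. The bound regions themselves covered 21.3% of the chromosomes. Desert lengths had a median of 34.2 kb, with quartiles of 28.9 and 46.5 kb, whereas the median over all gaps was 1886 bp. There were 96 deserts of at least 50 kb, which held 6.57 Mb, 25 of at least 75 kb and 8 of at least 100 kb. The cut at 25 kb did not fall at a break in the distribution. The 3 shortest deserts measured 25053, 25094 and 25144 bp, and the 3 longest gaps that missed the rule measured 24914, 24884 and 24845 bp.

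Deserts were found on all chromosomes except the fourth. On chromosome arm 3R, 123 deserts took up 18.6% of the sequence, followed by the X chromosome with 96 deserts (17.4%), 2L with 97 (16.8%), 3L with 75 (13.0%) and 2R with 57 (10.2%). Median desert lengths hardly varied between these arms, from 32.6 kb on 2R to 35.6 kb on 3R, and the arms differed in the number of deserts per Mb (2.70 on 2R, 4.41 on 3R) more than in their size. Chromosome 4, the small and largely heterochromatic dot chromosome, held none. Bound regions covered 42.0% of its 1.28 Mb, against 20.2% to 22.2% of each of the other arms, and its longest gap was 12.0 kb.

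**Figure D1:**
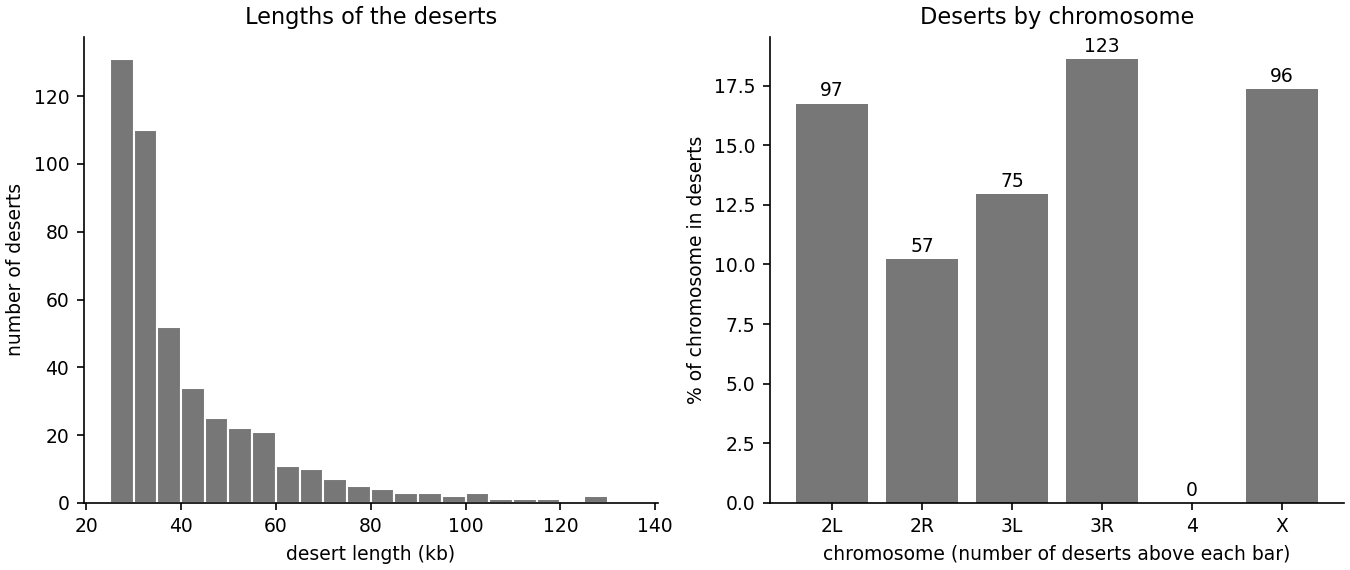
Left, number of deserts by length in classes of 5 kb; right, share of each chromosome lying in deserts in percent, with the number of deserts above each bar. Most deserts are shorter than 46.5 kb, and chromosome 4 has none.

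Within the arms the share of sequence in deserts varied. Neither this spread nor the spacing and chains below were compared with a random order of gaps. Over 57 windows of 2 Mb, the median window had 14.3% of its sequence in deserts. The richest window, from 22 to 24 Mb of 3R, had 35.4% and held the centres of 17 deserts, and it was also poor in bound sequence, with 11.2% in regions. It was followed by the windows from 8 to 10 Mb of 3R (32.2%) and from 16 to 18 Mb of 2L (31.2%). At the other end, the window from 22 to 24 Mb of 3L had no base in a desert and the first 2 Mb of 3R had 2.82%, both of them towards the centromere. Neighbouring deserts on an arm were separated by a median of 116.9 kb, but 81 of the 443 neighbouring pairs (18.3%) lay less than 10 kb apart.

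In 45 places deserts followed each other with a single bound region between them, forming chains that together held 95 deserts (21.2%). Of these chains, 40 had 2 deserts and 5 had 3. The longest, chr3R:8569281-8788050, spanned 218.8 kb and was broken only by regions of 461 bp and 313 bp, each listed for Dichaete and not for SoxN. Its 3 deserts measured 80007, 31922 and 106067 bp. In D. simulans neither factor had an interval in any of them, and the longest D. simulans gap (219.3 kb) covered this very chain, since neither of the lone D. melanogaster regions was listed there. D. yakuba had 4, 2 and 9 Dichaete intervals in the 3 deserts in order along the arm.

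The regions that border deserts were small. The 50 lone regions between 2 deserts had a median length of 493.5 bp, and the 796 regions beside 1 desert a median of 497.5 bp, against 646 bp for the 23719 other regions. A single GATC fragment made up 46.0%, 39.5% and 28.1% of them in the same order. The D. melanogaster Dichaete list contributed to 44 of the 50 lone regions (88.0%), to 81.2% of those beside 1 desert and to 81.4% of the others. For SoxN the numbers were 28 of 50 (56.0%), 75.5% and 88.2%. The Dichaete and SoxN lists share their Dam-only libraries, and these are descriptions of lists that set the rule.

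How many of these regions were found in the other species was taken from lists the rule did not use. Long regions are overlapped more readily, so regions were compared within a class of length. Of regions shorter than 500 bp, D. yakuba Dichaete intervals overlapped 4 of 27 between 2 deserts (14.8%, 95% Wilson interval 5.92 to 32.5%) and 125 of 398 beside 1 desert (31.4%, 27.0 to 36.1%), against 3952 of 9576 elsewhere (41.3%, 40.3 to 42.3%). From 500 to 1000 bp, 89 of 215 regions beside 1 desert were overlapped (41.4%, 35.0 to 48.1%), against 3806 of 6128 elsewhere (62.1%, 60.9 to 63.3%). In D. simulans the shares beside 1 desert differed little from those elsewhere among short regions and more among long ones. Between 2 deserts, D. simulans Dichaete overlapped 2 of 27 regions under 500 bp (7.41%, 2.06 to 23.4%) and SoxN 4 of 27 (14.8%, 5.92 to 32.5%). Its Dichaete list overlapped 78 of 398 regions under 500 bp beside 1 desert (19.6%, 16.0 to 23.8%), against 2259 of 9576 elsewhere (23.6%, 22.8 to 24.4%), and its SoxN list 86 of 398 (21.6%, 17.9 to 25.9%), against 2070 of 9576 (21.6%, 20.8 to 22.4%). From 2000 to 4000 bp, D. simulans Dichaete overlapped 26 of 42 regions beside 1 desert (61.9%, 46.8 to 75%), against 1948 of 2394 elsewhere (81.4%, 79.8 to 82.9%), and D. simulans SoxN 29 of 42 (69.0%, 54.0 to 80.9%), against 2056 of 2394 (85.9%, 84.4 to 87.2%). D. yakuba overlapped 32 of the same 42 (76.2%, 61.5 to 86.5%), against 2191 of 2394 (91.5%, 90.3 to 92.6%). The classes in between lay between these. From 500 to 1000 bp, D. simulans Dichaete overlapped 36.7% (30.6 to 43.4%) beside 1 desert, against 41.8% (40.6 to 43.1%) elsewhere. For D. simulans SoxN it was 38.1% (31.9 to 44.8%), against 41.5% (40.2 to 42.7%). From 1000 to 2000 bp, the Dichaete shares were 49.6% (41.1 to 58.1%) and 61.9% (60.5 to 63.2%). Those of SoxN were 55.0% (46.4 to 63.4%) and 63.9% (62.6 to 65.3%). Regions of a list are not replicates of a condition. Wilson intervals cover counting error only, and no test was made of these shares. Only length was matched, and not factor, fragment number or the scarcity of the overlapping list. Of regions beside 1 desert, 24.5% were listed for Dichaete alone and 39.5% were single fragments, against 11.8% and 28.1% of regions elsewhere. The lower shares therefore do not tell whether regions beside deserts were shared less than such differences would give.

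Inside the deserts the other species had few intervals. Each list was compared with itself after 10000 circular shifts, which slide the whole list round every chromosome by a randomly drawn step, so that its lengths and spacing are kept while its place relative to the deserts is lost. In all 4 lists, and by number of intervals as well as by base pairs, the deserts held less than in any of the 10000 shifts.

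The D. simulans Dichaete list had 379 of its 16119 intervals in deserts, or 20.7 per Mb, against a mean of 2485.5 and a lowest value of 1860 after shifting. They covered 185977 bp, which is 1.02% of the desert sequence, against 10.96% on average after shifting. The observed number was 0.153 times and the observed base pairs were 0.0928 times the shifted mean. The D. simulans SoxN list had 470 of 15142 intervals there (25.7 per Mb), against a shifted mean of 2333.3 and a lowest value of 1777. They covered 257160 bp (1.41%), against 12.3% on average, so that 0.201 of the shifted number and 0.114 of the shifted base pairs were observed. For both factors, the deserts were thus also poor in listed intervals in D. simulans. Both lists share their Dam-only libraries, so they are not independent of each other.

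D. yakuba Dichaete, the longest list, also had the most intervals in the deserts. There were 983 of 20964 (53.8 per Mb), against a shifted mean of 3274.3 and a lowest value of 2538. They covered 840095 bp (4.60%), against 25.4% on average after shifting. The ratios to the shifted mean were 0.300 for intervals and 0.181 for base pairs. The paper describes its D. pseudoobscura profiles as noisier than those of the other species, with replicates that reproduced less well. D. pseudoobscura, the most distant species and the one with the shortest list, had 74 of 2020 intervals in deserts (4.05 per Mb), against a shifted mean of 301.8 and a lowest value of 215. They covered 45663 bp (0.250%), against 0.949% on average, with ratios of 0.245 and 0.263. In each of the 8 comparisons the one-sided circular permutation p-value was 0.0001, also after Benjamini-Hochberg adjustment over the 8, and this is the smallest value that 10000 shifts can give. Ratios were not tested against each other between lists.

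**Figure D2:**
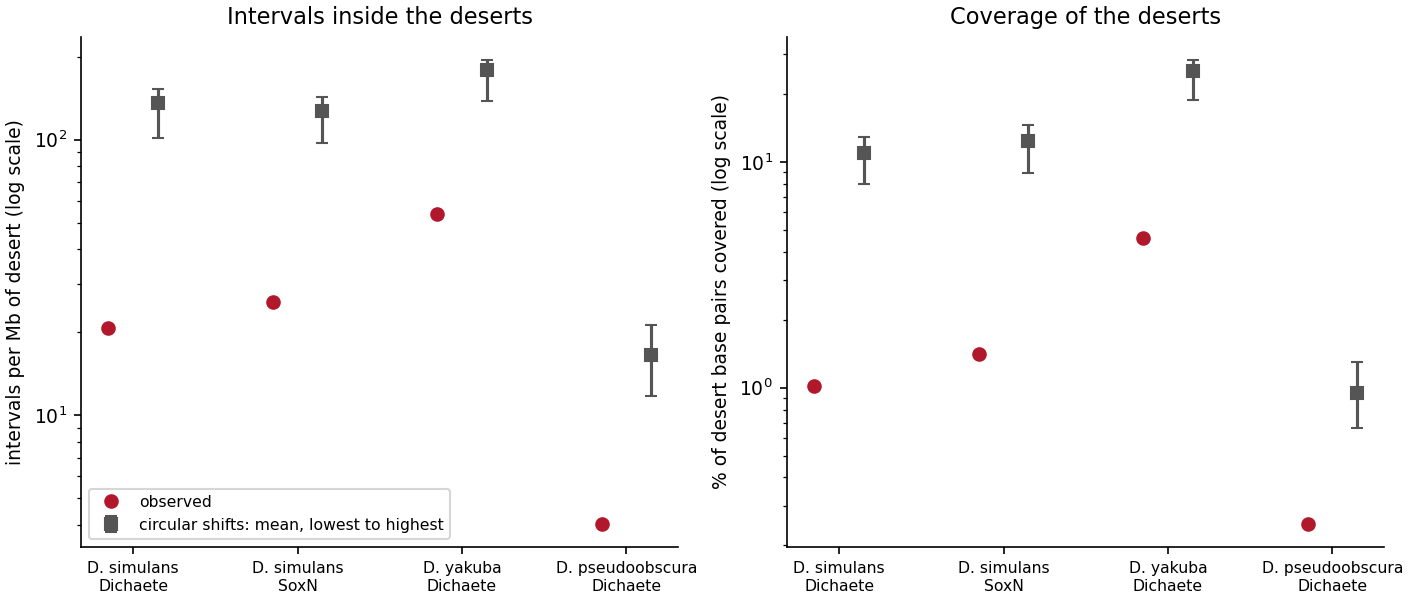
Intervals per Mb of desert (left) and percentage of desert base pairs covered (right) for the 4 lists of the other species, on log scales. Red points are observed values; grey squares are means over 10000 circular shifts with bars from the lowest to the highest shift. Every red point lies below its bar, for example 20.7 intervals per Mb against a shifted mean of 136 for D. simulans Dichaete.

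The deficit was present on each of the 5 arms with deserts. Observed intervals were between 0.133 (2L) and 0.171 (3R) of the shifted mean for D. simulans Dichaete, and between 0.183 (X) and 0.218 (3R) for D. simulans SoxN. For D. yakuba Dichaete they were between 0.262 (2L) and 0.356 (X). The X chromosome thus had the D. yakuba value nearest to the shifted mean, with 247 intervals observed against 694 on average after shifting. For D. pseudoobscura the range ran from 0.192 (3R) to 0.407 (3L), where 25 intervals lay in deserts, against a shifted mean of 61.5. With 9 to 25 D. pseudoobscura intervals per arm, these ratios are imprecise.

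Deserts were the far end of a gradation. When all gaps were sorted by length, the share covered by the other species' lists was lower in each longer class, for every list. For D. yakuba Dichaete it was 42.6% in gaps under 1 kb, 32.8% from 1 to 2 kb, 23.7% from 2 to 5 kb, 16.0% from 5 to 10 kb, 9.08% from 10 to 25 kb and 4.60% in deserts, whereas it was 59.2% in the D. melanogaster regions. For D. simulans Dichaete the share was 15.1% in gaps under 1 kb, 6.19% from 2 to 5 kb, 2.28% from 10 to 25 kb and 1.02% in deserts, and for SoxN 16.0%, 6.11%, 2.42% and 1.41%. D. pseudoobscura Dichaete covered 1.20%, 0.713%, 0.314% and 0.250% of the same classes. Short gaps lie close to bound regions on both sides, and an interval that spans a region also covers the ends of its gaps.

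**Figure D3:**
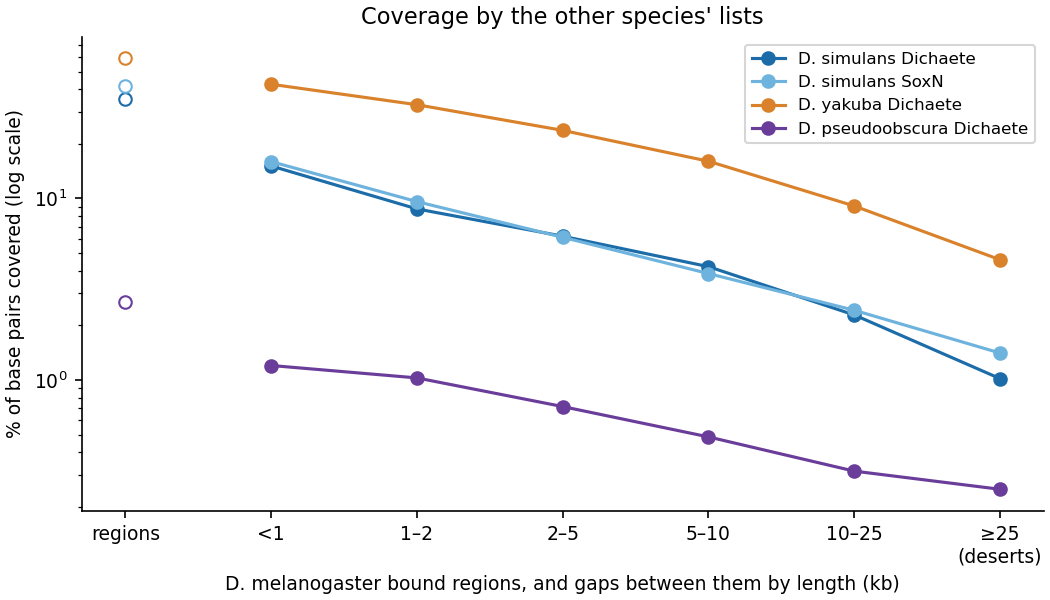
Percentage of base pairs covered by each list of the other species (log scale) in the D. melanogaster bound regions (open circles) and in the gaps between them by gap length in kb. Coverage is lower in each longer class, down to 4.60% for D. yakuba Dichaete and 0.250% for D. pseudoobscura Dichaete in the deserts.

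Among the deserts themselves, values by length class lay closer together. In the 131 deserts from 25 to 30 kb, the 4 lists had 27.3 (D. simulans Dichaete), 27.3 (D. simulans SoxN), 56.9 (D. yakuba) and 4.46 (D. pseudoobscura) intervals per Mb. In the 53 deserts of 60 kb or more, they had 16.4, 22.6, 45.6 and 3.32 per Mb in the same order. D. yakuba was not ordered by length throughout, since deserts from 30 to 40 kb had 64.6 intervals per Mb.

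Coverage was highest at the edges of deserts, where intervals also reached in from bound regions. D. yakuba Dichaete covered 14.2% of the outermost 1 kb on either side, 6.93% from 1 to 2 kb, 5.77% from 2 to 5 kb, 4.40% from 5 to 10 kb and 3.20% beyond 10 kb. When only clear intervals, those sharing no base with a D. melanogaster region, were kept, the shares were 4.58%, 3.91%, 5.23%, 4.29% and 3.18% in the same order, so that coverage no longer followed the distance up to 5 kb. For D. simulans Dichaete the outermost 1 kb was covered to 3.39% by all intervals and to 1.54% by the clear ones, against 0.689% beyond 10 kb, and for SoxN to 4.32% and 1.22%, against 1.41% of clear coverage from 2 to 5 kb and 1.17% beyond 10 kb. Intervals that overlapped a D. melanogaster region numbered 38 of 379 and 53 of 470 for D. simulans Dichaete and SoxN, 129 of 983 for D. yakuba and 2 of 74 for D. pseudoobscura. The clear intervals still include those that abut a region without sharing a base, which numbered 7, 13, 29 and 4 in the same order.

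**Figure D4:**
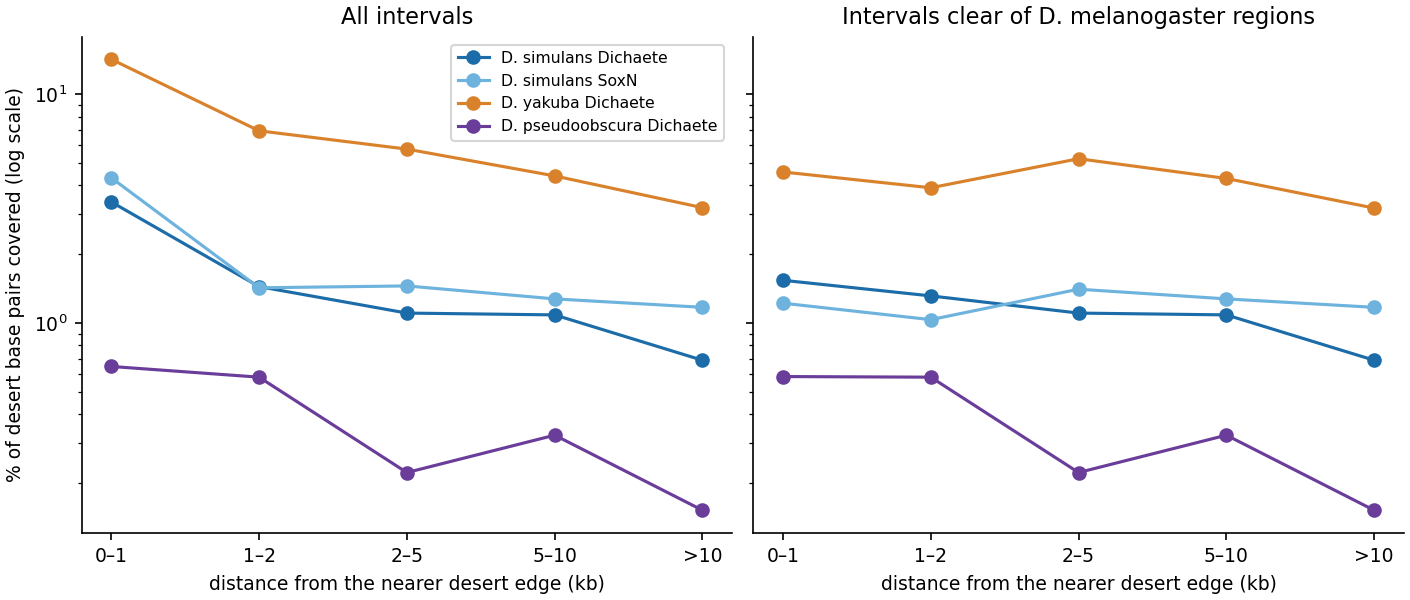
Percentage of desert base pairs covered (log scale) by distance from the nearer desert edge in kb, for all intervals (left) and for intervals that overlap no D. melanogaster region (right). The rise of D. yakuba Dichaete to 14.2% in the outermost 1 kb is 4.58% once intervals overlapping bound regions are left out, and the values on the right are not ordered by distance for 3 of the 4 lists.

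Intervals that lay clear of D. melanogaster regions were mostly single fragments. In deserts, 535 of 854 such D. yakuba intervals (62.7%, 95% Wilson interval 59.3 to 65.8%) were made of a single GATC fragment, against 50.5% (49.3 to 51.7%) of 6675 intervals in shorter gaps and 26.5% of the whole list. Their median of 422.5 bp per fragment compared with 367.9 bp in shorter gaps. In D. simulans the shares were 65.7% (60.5 to 70.5%) against 63.2% (61.6 to 64.8%) for Dichaete and 68.4% (63.7 to 72.6%) against 64.6% (62.8 to 66.3%) for SoxN, with overlapping intervals, and medians per fragment of 307 against 281.5 bp and of 338 against 325 bp. D. pseudoobscura had 58 of 72 single-fragment intervals (80.6%, 70.0 to 88.1%), against 79.0% (75.5 to 82.1%) in shorter gaps. The spacing of GATC sites in deserts could not be read from the lists, and its part in the deficit was not tested.

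Most deserts were not wholly empty in the other species. D. simulans Dichaete had no interval in 228 deserts (50.9%), D. simulans SoxN in 181 (40.4%), D. yakuba Dichaete in 88 (19.6%) and D. pseudoobscura in 385 (85.9%). Neither these counts nor those that follow were computed for shifted lists. The D. pseudoobscura list had a mean of only 301.8 intervals in the 448 deserts after shifting, so many would hold none in any case. The median desert was covered to 3.05% by D. yakuba and to 0.703% by D. simulans SoxN. Taking both D. simulans factors together, 264 deserts had intervals in D. simulans and in D. yakuba, 52 in D. simulans only, 96 in D. yakuba only and 36 in neither. There were 24 deserts with at least 1 interval in each of the 4 lists. At the other extreme, 29 deserts (6.47%) had none in any list. The longest of these was chr2L:11741667-11789898 (48.2 kb), followed by chr2L:11547781-11591499 (43.7 kb) and chr2R:11313191-11353072 (39.9 kb). The longest stretch free of any interval in each desert had a median of 21.4 kb, with 165 deserts holding one of at least 25 kb. In 33 deserts it was under 10 kb, down to 3.23 kb in chr2L:22978691-23007736.

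Where the other species did have intervals in deserts, most were found in a single species, as in shorter gaps. The intervals of all 4 lists were merged, and merged regions that shared no base with a D. melanogaster region were kept. A clear interval merged with one that reached a D. melanogaster region was thus left out. Of 1355 such regions within deserts, 1197 (88.3%) were found in 1 of the 3 other species, 156 (11.5%) in 2 and 2 (0.148%) in all 3. In shorter gaps, 87.3% of 9532 such regions were found in 1 of them, 12.4% in 2 and 0.283% in all 3. Of 341 clear D. simulans Dichaete intervals, D. yakuba Dichaete overlapped 100 (29.3%, 95% Wilson interval 24.7 to 34.4%), compared with 46.4% (44.8 to 48.1%) of 3631 such intervals in shorter gaps. Of 854 clear D. yakuba intervals, D. simulans Dichaete overlapped 99 (11.6%, 9.62 to 13.9%), compared with 15.9% (15.0 to 16.8%) of 6675. D. simulans SoxN overlapped 11.7% of them (9.72 to 14.0%), compared with 12.3% (11.5 to 13.1%), and D. pseudoobscura 1.17% (0.637 to 2.14%), compared with 1.15% (0.924 to 1.44%). No test was made of these shares, since intervals of a list are not replicates. For D. simulans SoxN, D. yakuba Dichaete overlapped 105 of 417 (25.2%, 21.2 to 29.6%), compared with 43.4% (41.6 to 45.2%) of 2948. Of 72 clear D. pseudoobscura intervals, 10 were overlapped in D. yakuba (13.9%, 7.72 to 23.7%), compared with 39.8% (35.9 to 43.8%) of 586. Lengths were not matched, and the D. simulans lists were not set against each other, since they share Dam-only libraries. Nor were the shares adjusted for the scarcity of the overlapping list. D. yakuba Dichaete covered 4.60% of desert sequence, against 9.08% to 42.6% in the classes of shorter gaps. For D. simulans Dichaete it was 1.02%, against 2.28% to 15.1%. The lower shares in deserts therefore do not tell whether intervals there were shared less than this scarcity would give.

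The 2 merged desert regions found in all 3 other species but in neither D. melanogaster list were examined singly. Intervals start and end with GATC fragments, so shared or touching ends, here and below, mean only that the same or neighbouring fragments were listed. The first, chr2L:14079736-14080653, lay 1.52 kb from the right edge of a desert of 34.4 kb. D. simulans Dichaete and D. yakuba Dichaete had the same interval there, of 862 bp and 3 fragments, D. simulans SoxN one of 559 bp and D. pseudoobscura Dichaete one of 365 bp. The second, chr3L:9633167-9634678, began at the left edge of a desert of 25.8 kb, in direct contact with a D. melanogaster region of 219 bp. Both D. simulans factors had the same interval of 557 bp and a single fragment, D. yakuba one of 1191 bp that met the desert's edge, and D. pseudoobscura one of 878 bp and 7 fragments.

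Deserts were also compared as such between species. Gaps of at least 25 kb numbered 602 in the D. simulans union of Dichaete and SoxN, with 25.9 Mb and 21.6% of the chromosomes, and 503 in the D. yakuba Dichaete list, with 20.4 Mb and 17.0%. Of the D. melanogaster desert sequence, 12.4 Mb (68.1%) lay in D. simulans gaps of this size, against a mean of 21.9% and a highest value of 35.5% after 10000 circular shifts. With D. yakuba, 10.8 Mb (59.2%) was shared, against a mean of 17.4% and a highest value of 30.2%. Both ratios, 3.11 and 3.40 times the shifted mean, had a one-sided circular permutation p-value of 0.0001, also when adjusted over the 2 comparisons. This is the same scarcity seen from the side of the gaps and not a separate line of evidence. D. pseudoobscura was left out, since its short list leaves long gaps everywhere.

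Gap by gap, 320 deserts (71.4%) had at least 50% of their length in a D. simulans gap of at least 25 kb and 280 (62.5%) in a D. yakuba one, and 213 (47.5%) met this for both. Deserts that lay wholly within such a gap numbered 131 in D. simulans, 88 in D. yakuba and 36 in both species, whereas 44 overlapped no such gap of either species. Gaps of this size took up 21.6% of the chromosomes in D. simulans and 17.0% in D. yakuba. Neither these counts nor those that follow were computed for shifted lists. Stretches of at least 25 kb without an interval in the lists of all of D. melanogaster, D. simulans and D. yakuba numbered 181 and added up to 6.21 Mb, with a median of 31.1 kb. The longest of these, chrX:21686027-21776961, measured 90.9 kb. Seen from the other species, 48.0% of the D. simulans and 53.0% of the D. yakuba gap sequence lay in D. melanogaster deserts, which took up 15.2% of the chromosomes.

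The longest desert, chrX:5048058-5177850, measured 129.8 kb and was flanked by regions of 591 and 304 bp. D. simulans had 2 Dichaete intervals and 1 SoxN interval in it, D. yakuba had 9 covering 3.87%, and D. pseudoobscura had 1. A D. pseudoobscura interval of 911 bp, a D. simulans SoxN interval of 745 bp and a D. yakuba interval of 853 bp followed each other end to end without overlapping, beginning 48.5 kb from its left edge. The next longest, chr2R:14874813-15001866 (127.1 kb), was covered to 2.45% by D. yakuba, to 0.471% by D. simulans Dichaete, to 1.39% by D. simulans SoxN and to 0.715% by D. pseudoobscura. The third, chrX:21657528-21776961 (119.4 kb), had no interval of D. simulans or D. pseudoobscura and 5 of D. yakuba, all starting between 13.2 and 28.4 kb from its left edge, which left the stretch of 90.9 kb named above empty.

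The desert chr2L:16961027-17075437 (114.4 kb) was the best covered of the 10 longest, with 7 D. yakuba intervals over 7.11% and 2 D. pseudoobscura intervals over 2.58%. Close to its left edge D. yakuba had an interval of 3519 bp and D. pseudoobscura one of 2570 bp with the same start. The longest D. pseudoobscura interval within any desert was this one. Of the remaining deserts among the 10 longest, chr3R:8681984-8788050 (106.1 kb) had no D. simulans interval, and D. yakuba coverage ranged from 1.25% in chr2L:14861054-14959973 (98.9 kb) to 3.47% in the 3R desert. The D. simulans lists together covered no more than 2.94% of any of the 10.

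A few shorter deserts were well covered in other species. The desert with the largest D. simulans share, chr2R:19653009-19681968 (29.0 kb), had 10 D. simulans Dichaete intervals over 20.9% and 13 D. yakuba intervals over 41.1%, but only 2 D. simulans SoxN intervals (2.89%) and none of D. pseudoobscura. Several intervals had the same ends in D. simulans and D. yakuba, among them one of 718 bp at 1.04 kb and one of 253 bp at 24.2 kb from its left edge. The same GATC fragments were thus listed in both species, and the ends give no finer position of binding. In chr3R:2066548-2092226 (25.7 kb), 6 D. simulans Dichaete intervals covered 12.9% and 8 of D. yakuba 15.2%, and in chrX:18328623-18357517 (28.9 kb) 3 and 2 intervals covered 12.4% and 14.3%. Near the tip of the X chromosome, chrX:96644-144197 (47.6 kb) was covered to 11.1% by the D. simulans lists together and to 33.9% by D. yakuba. There a D. simulans SoxN interval of 4009 bp and a D. simulans Dichaete interval of 2858 bp, the longest of their lists within a desert, overlapped near the right edge. The SoxN interval also overlapped a D. yakuba interval of 5532 bp. The fifth, chr3R:17614603-17649394 (34.8 kb), owed its D. simulans share of 10.9% mainly to a SoxN interval of 8558 bp that reached in from the flanking region of 6913 bp.

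D. yakuba alone covered 39.5% of chrX:3787129-3817769 (30.6 kb), with 11 intervals and none in any other list. The longest of these, of 6508 bp and 20 fragments, reached in from the left and the last began 30.2 kb from the left edge. The 2 highest D. yakuba shares included single fragments of unusual size. In chr2L:22978691-23007736 (29.0 kb), covered to 73.8%, one fragment of 19401 bp made up most of the coverage, and in chrX:15906963-15941948 (35.0 kb), covered to 66.0%, a fragment of 8309 bp gave 36.0% of the covered base pairs and lay next to an interval of 12898 bp that reached in from the left. Without these fragments the shares of the 2 deserts were 6.97% and 42.2%. These were the only single-fragment intervals of at least 5 kb in the D. yakuba list, and both lay in deserts. If the inferred fragment number is right, such an interval has no GATC site between its ends, and the place of binding within it cannot be resolved. The sequence of these stretches was not examined. Leaving them out takes 27710 bp (3.30%) off the D. yakuba base pairs in deserts, and coverage is then 4.44%. By contrast, the D. yakuba interval with the most fragments in a desert had 51 in 5430 bp, 0.375 kb from the left edge of chrX:9260180-9341704 (81.5 kb). With 15 D. yakuba intervals, this desert also held the largest number from that list.

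**Figure D5:**
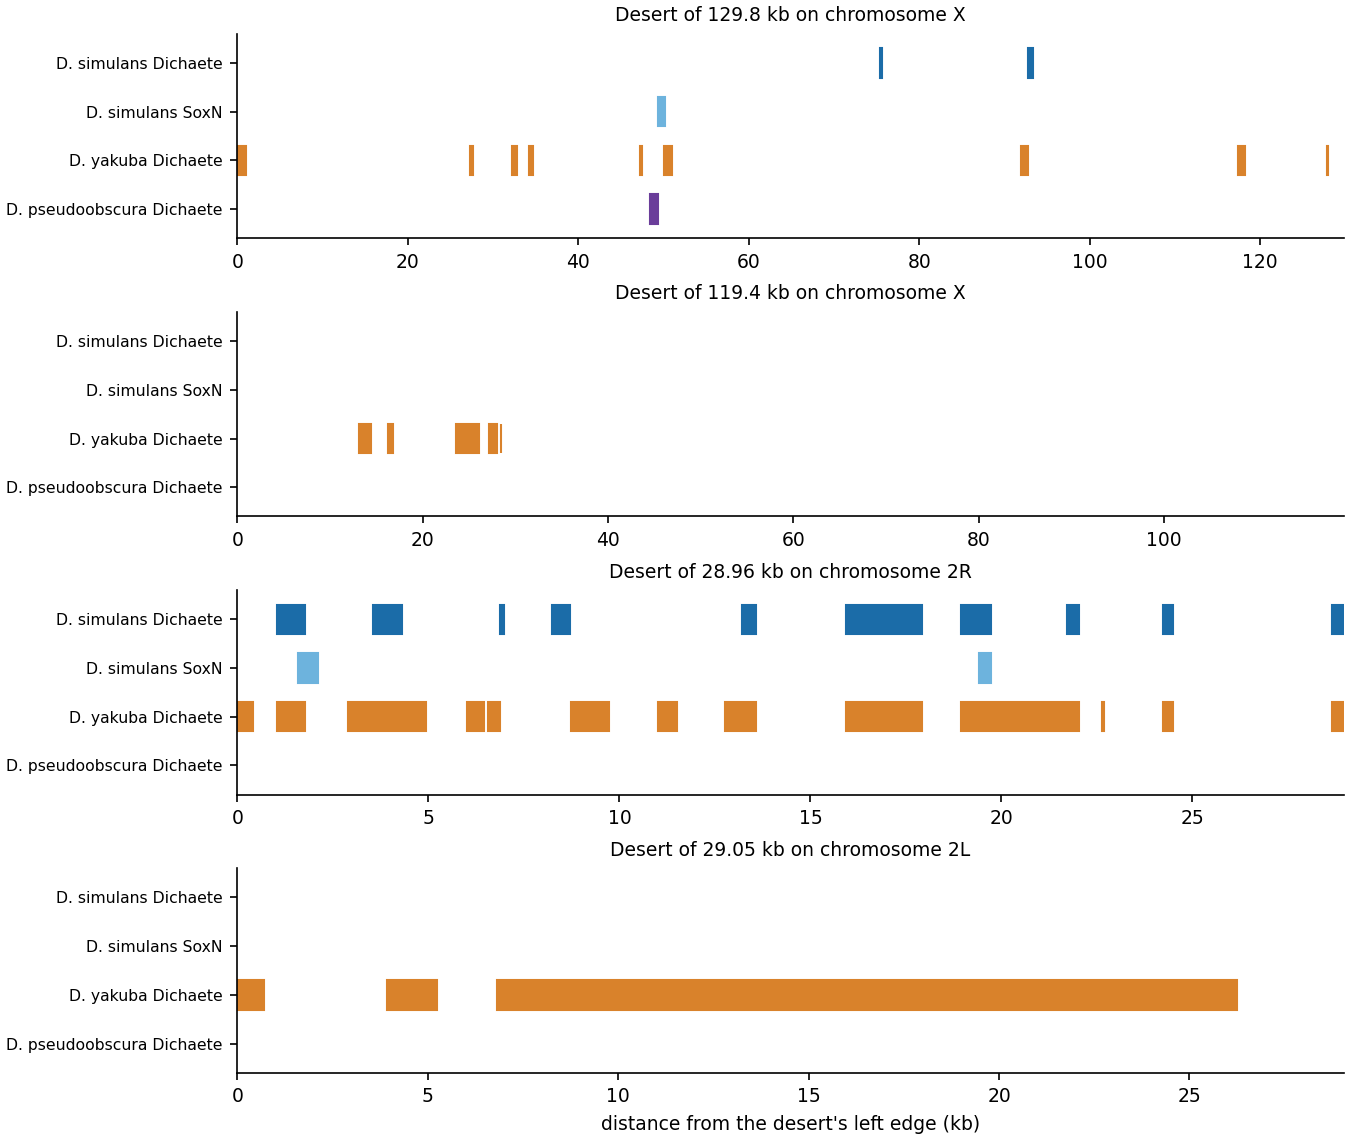
Intervals of the 4 lists of the other species (colours, to scale and cut at the desert's edges) by distance from the left edge of the desert in kb, in the longest desert (129.8 kb), the third longest (119.4 kb), the desert with the largest D. simulans share (2R) and the one with the largest D. yakuba share (2L). The empty right part of the desert of 119.4 kb measures 90.9 kb, and the long bar in the lowest panel is the fragment of 19401 bp.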

How the data were processed

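Whole embryos were profiled by DamID-seq. Per the paper, the authors removed adapters (Cutadapt), mapped reads (bowtie2), extended them to 200 bp, counted them on GATC fragments (BEDTools), tested each fusion against Dam alone (DESeq2) and merged enriched fragments within 100 bp. LiftOver placed the reads of the 3 other species on dm3, so a stretch that does not translate cannot hold an interval. The deposited lists give the start, end and, as inferred from the values, number of fragments of each interval at an adjusted p-value threshold of 0.05, and for D. melanogaster also of 0.01. They hold no counts, so depth is unknown.

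Unions, gaps and overlaps of at least 1 bp were computed in Python 3.11.15 (NumPy 2.4.6, SciPy 1.17.1, Matplotlib 3.10.9). An interval in 2 deserts was counted as 1. Each chromosome was taken to end at the last interval end of any list. Of 23 checks on simulated lists and small fixed examples, 23 passed. They set counts and base pairs against a base-by-base count and ran the shift test with and without intervals removed from gaps. Loci named were the 10 longest deserts, the 5 with the largest D. yakuba and D. simulans shares and the 3 on either side of 25 kb. Others (chains, empty deserts, recurrent or extreme intervals) were chosen after their values were seen. The gaps and tests were chosen with earlier results of these data known. Lists in the other species' own coordinates were not used here.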

Additional observations from a re-analysis of the deposited data

How the results depend on the processing

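All 10 tests were repeated under up to 16 alternatives, of which 5, leaving out each large chromosome arm in turn, were chosen after seeing the data. The others were gap minimums of 20, 30 and 50 kb, D. melanogaster lists at 0.01, gaps of either factor alone, intervals of at least 500 bp, no chromosome 4, 2 Mb left out at chromosome ends, shifts of at least 500 kb, and intervals counted only when wholly within a gap. All 154 values kept their direction, with a circular permutation p-value of 0.0001, but the 10 without chromosome 4, which has no desert, could not change, which leaves 144. Observed intervals ranged from 0.117 to 0.225 of the shifted mean for D. simulans Dichaete, 0.187 to 0.266 for D. simulans SoxN, 0.251 to 0.408 for D. yakuba and 0.204 to 0.285 for D. pseudoobscura. Gap sequence shared with D. simulans ranged from 2.15 to 5.02 and with D. yakuba from 2.45 to 6.12 times the shifted mean. The number of gaps itself was 96 at a minimum of 50 kb and 750 when only intervals of at least 500 bp were kept, against 448, and their sequence was 6.57 and 34.3 Mb, and 27.7 Mb with the lists at 0.01, against 18.3 Mb.

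No paired analysis was possible because the lists pool the replicates. Precision is limited by the 74 D. pseudoobscura intervals in deserts. The lists do not tell sequence that failed to translate, or had few reads, from sequence that was not enriched, and the part of either in the deficit was not tested.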
